A study of Rattus norvegicus with 96 samples.

Results

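Blood RNA was compared between 8 rats killed 1 week after inhaling crystalline silica and 8 rats killed at week 0 of the same exposure. These 16 male CDF Fisher 344 rats had breathed 15 mg/m3 of silica for 6 hours a day on 5 days, and they were picked by their titles among 96 rats with 1 array each. Air rats of the same strain and sex, 4 killed at week 1 and 4 at week 0, were measured beside them. Every rat is labelled 3 months old. Each was killed at its week, so no rat was bled at both, and the labels do not say how many hours after the last exposure the week 0 rats were killed. Week, age and the day of bleeding cannot be told apart within the silica rats. Globin mRNA was depleted before hybridisation to Illumina rat BeadChips. Levels are normalised log2 intensities of 1 probe row, so they compare rats and not genes. Changes are log2 differences, week 1 minus week 0, given with the fit's SE (standard error). A gene was called where limma's adjusted p (Benjamini-Hochberg over 12306 genes) was under 0.05.

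Crystalline silica is a mineral dust that reaches the alveoli, where macrophages take it up and are damaged by it, which starts a lung inflammation. Blood can carry a trace of such a response, since neutrophils, monocytes and lymphocytes travel through it and interferons and cytokines act on circulating cells. Whole-blood RNA mixes white cells, platelets and reticulocytes, so that fewer cells of a type and less RNA per cell cannot be told apart in it.

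Arrays of week 1 silica rats detected 8714 to 9531 of 21792 probe rows, and those of week 0 silica rats 9186 to 9970. The means were 9184.5 ± 285 rows at week 1 and 9541.25 ± 324 at week 0 (SD, n = 8 each; exact permutation p = 0.0353, 2-sided, or 0.0706 adjusted over the 2 array measures tested). Paired by column run, a test chosen after the data were seen, week 1 arrays detected fewer rows in 7 of 8 silica pairs (exact sign-flip p = 0.0234, 2-sided, or 0.0469 adjusted over the same 2 measures). Air arrays detected fewer at week 1 in 4 of 4 pairs, where no p under 0.125 is possible. The part of this difference in the results below was not tested. Median intensity did not differ beyond the spread (exact permutation p = 0.935, n = 8 each). Genes of T cells (Cd3e), B cells (Ms4a1), neutrophils (S100a8), reticulocytes (Alas2) and platelets (Pf4) were detected on 8 of 8 arrays of each week. So were Cd14 of monocytes and Nkg7 and Prf1 of NK cells. The neutrophil gene S100a9 was detected on 7 of 8 arrays at week 1 and 6 of 8 at week 0. Cd79a, Csf1r and Itga2b, also looked for, had no row. The lung genes Sftpc, Sftpb and Scgb1a1 were detected on 0 of 8 arrays of each week. The labels name no chip, and runs of 12 columns next to each other in the deposited table were used in its place. Each of the 8 runs held 1 silica rat of either week, and the air rats lay in the first 4 runs.

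Blood RNA differed between the weeks at many genes in silica rats, mostly by small amounts. In all 1808 genes were called, 14.7% of those tested, with 895 higher (7.27%) and 913 lower (7.42%) at week 1. Of these, 38 were higher and 70 lower by more than 1.5-fold. With arrays centred on their medians in place of quantile normalization, 546 genes were called, 27 higher and 519 lower, and the median of all 25 gene lists described below lay under 0. Within the first 4 column runs, 4 rats a week, 28 genes were called, and within the last 4 runs 654. With the column run as a block 2052 were called. The number of arrays limits the precision, and the median SE of a silica change was 0.08.

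The sizes of the changes depended on the background correction. For the 24 leading genes described below, stock neqc gave changes of 0.140 to 1.15 times those printed (median 0.445), and 16 of them moved by more than 1.5 times. Without a background correction 10 of the 24 moved that far, and in the authors' deposited values 12 did (0.507 to 0.969 times, median 0.671). Cyp1b1, for example, changed by -1.94 as printed below, by -0.82 with stock neqc and by -1.29 in the authors' deposited values. For Abcb9 the same 3 values were 0.97, 0.19 and 0.54, for Nos2 -1.14, -0.19 and -0.58, and for Mpig6b -1.07, -0.17 and -0.54. Of the 91 named genes called in silica rats, 40 moved by more than 1.5 times with stock neqc and 28 with median centring.

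Air rats showed much of the same change. Among them 1593 genes (12.9%) were called, 903 higher (7.34%) and 690 lower (5.61%) at week 1, and with median centring 20 (8 higher and 12 lower). With replicate number as a block 541 were called, though same-numbered air rats did not deviate together from their group means. Both contrasts called 994 genes, all in the same direction, which is 55.0% of the silica calls and 62.4% of the air calls. Of the 1808 genes called in silica rats, 1766 (97.7%) had the same sign in air rats, against 71.3% of all genes. Genes higher in silica rats had a median change of 0.31 there and of 0.38 in air rats. For genes lower in silica rats the medians were -0.31 in silica and -0.31 in air. Across all genes the silica and the air change correlated with r = 0.73 (Spearman 0.66), a description over genes, which are not independent. The contrasts have no array in common, but they share column runs and the normalization. They also share each gene's estimate of spread, which came from a joint fit over all arrays. With only the arrays compared in each fit, 1519 genes were called in silica rats and 950 in air rats.

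The test of the difference between the silica and the air change called 0 genes (0%) in limma, with a smallest adjusted p of 0.898 and 660 genes at an unadjusted p under 0.05. Its median SE was 0.14, with 4 air rats a week. For 1652 of the 1808 silica calls the 95% interval of that difference included 0. An unadjusted p under 0.05 was met by 8.63% of them and by 5.36% of all genes. No gene was thus shown to change differently in silica and air rats.

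**Figure D1:**
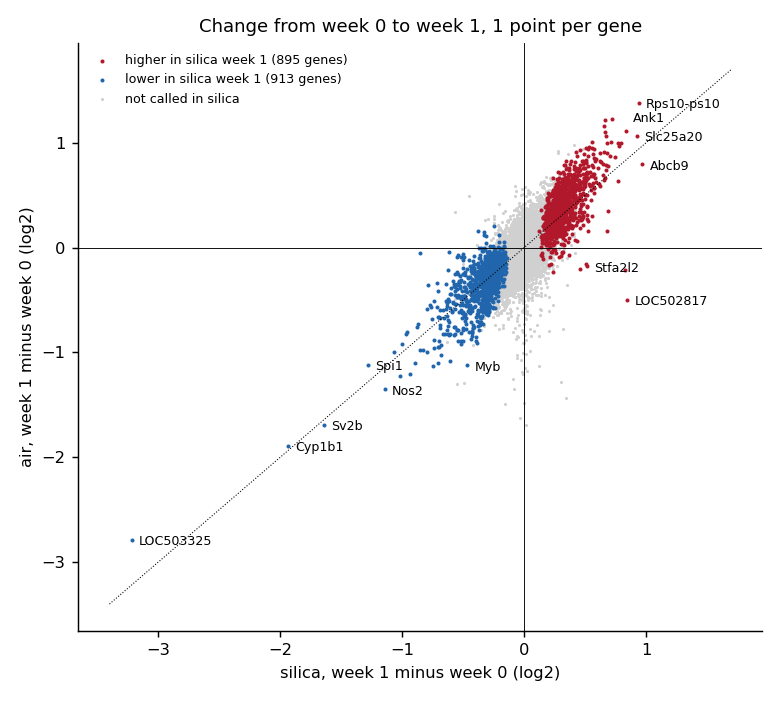
Log2 change from week 0 to week 1 in silica rats (x axis) and air rats (y axis), 1 point per gene, with genes called higher (895) or lower (913) in silica in colour and a dotted line of equal change. Most coloured points lie on the same side of 0 in both, while LOC502817 and Stfa2l2 are silica rises with a change under 0 in air.

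The largest fall was that of LOC503325, a transcript known here only by its identifier, at 0.108 times its week 0 level. Silica rats had 6.49, 6.58 and 7.02 (lowest, median and highest) at week 1, against 8.75, 9.45 and 11.35 at week 0, so the weeks did not overlap (change -3.22 ± 0.22 SE, adjusted p = 1.26e-20). Weeks without overlap occurred in 1.49% of all genes in silica rats and in 14.9% in air rats, which are fewer. In air rats the gene stood at 6.15, 7.47, 6.75 and 6.92 at week 1, against 9.25, 10.52, 9.03 and 9.64 at week 0 (change -2.79 ± 0.31). Both exposures were thus low at week 1, and the difference of their changes was -0.43 (95% interval -1.19 to 0.34).

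Cyp1b1, a cytochrome P450 that oxidises aromatic hydrocarbons and steroid hormones and is a textbook target of the aryl hydrocarbon receptor, followed. It stood at 5.72, 6.47 and 6.92 in week 1 silica rats, against 7.63, 8.31 and 8.97 in week 0 silica rats, without overlap (change -1.94 ± 0.24, adjusted p = 3.19e-08). The air rats had 6.42, 6.54, 6.70 and 7.02 at week 1, against 7.88, 9.09, 7.95 and 9.30 at week 0 (change -1.89 ± 0.35). The silica change minus the air change was -0.05 (95% interval -0.89 to 0.79). Its promoter is shown because that receptor binds a short core sequence, GCGTG. The 250 bases before its RefSeq start site, chr6:21094315-21094564 of GRCr8, plus strand, held 2 matches on either strand (GCGTG or CACGC, in capitals), starting 20 and 81 bases before the start. Of 33469 rat promoters of that length, 25.9% held at least 1 match, so a match is common.
Cyp1b1: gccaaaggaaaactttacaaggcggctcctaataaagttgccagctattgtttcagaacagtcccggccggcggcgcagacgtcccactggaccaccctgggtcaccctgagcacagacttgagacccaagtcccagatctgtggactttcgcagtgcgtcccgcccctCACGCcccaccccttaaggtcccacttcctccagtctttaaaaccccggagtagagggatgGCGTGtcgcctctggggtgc

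Spi1, Nos2 and Mpig6b were further large falls. Spi1, which encodes PU.1, a transcription factor of myeloid and B cells, had 6.14, 6.56 and 6.90 in week 1 silica rats, against 7.23, 7.90 and 8.11 at week 0, without overlap (change -1.28 ± 0.19, adjusted p = 6.64e-07, with -1.12 ± 0.27 in air). Nos2, the inducible nitric oxide synthase, stood at 5.34, 5.61 and 6.24 at week 1, against 6.07, 6.62 and 7.61 at week 0, where the weeks overlapped (change -1.14 ± 0.25, adjusted p = 0.000526, with -1.35 ± 0.35 in air). Mpig6b, an inhibitory receptor of megakaryocytes and platelets, stood at 5.45, 5.72 and 6.21 at week 1, against 6.55, 6.89 and 7.06 at week 0, without overlap (change -1.07 ± 0.20, with -0.99 ± 0.28 in air). Every week 1 silica rat thus lay below every week 0 silica rat in Spi1 and in Mpig6b, but not in Nos2.

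Sv2b, which encodes a synaptic vesicle glycoprotein, fell without overlap of the weeks in either exposure. It had 9.01, 9.47 and 10.12 in week 1 silica rats, against 10.48, 11.13 and 11.98 at week 0 (change -1.64 ± 0.19, adjusted p = 2.53e-09). Air rats had 9.62, 10.18, 9.12 and 10.10 at week 1, against 11.21, 11.37, 11.17 and 12.02 at week 0. Phospho1, a phosphatase of phosphocholine and phosphoethanolamine, changed by -1.02 ± 0.17, and Zfp36l2, an RNA-binding protein that speeds the decay of AU-rich mRNAs, by -0.999 ± 0.16. The RNAs of surface proteins that lymphocytes carry fell as well, namely Cd226, an activating receptor of NK and T cells (-0.96 ± 0.14), and Cd38, an enzyme that consumes NAD (-0.94 ± 0.18). Which blood cells these RNAs came from was not tested. The other large falls were Sh3bgrl1 (-0.97 ± 0.13) and Fam220a (-0.89 ± 0.20). Of these 12 falls, 12 were called lower in air rats too, where 5.61% of all genes were. The weeks did not overlap for 12 of the 12 in air rats and for 8 of the 12 in silica rats. Among all genes the weeks did not overlap for 14.9% in air rats and for 1.49% in silica rats. Air rats are fewer, so the counts of 12 and 8 do not compare the exposures.

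The 12 largest rises lay between 1.64-fold and 1.96-fold with the background correction used here, and several were smaller with others (Abcb9 at 0.19 and Sowaha at 0.12 on the log2 scale with stock neqc). Abcb9, a lysosomal peptide transporter, had 6.86, 7.11 and 7.24 in week 1 silica rats, against 5.69, 6.09 and 6.53 at week 0, without overlap (change 0.97 ± 0.13, adjusted p = 4.11e-08). In air rats it stood at 5.92, 7.23, 7.02 and 6.81 at week 1, against 5.54, 6.63, 5.76 and 5.86 at week 0, where the weeks overlapped (change 0.80 ± 0.18). Slc25a20, the carrier that brings acylcarnitines into mitochondria for fatty acid oxidation, had 8.05, 8.38 and 8.73 at week 1, against 7.07, 7.50 and 8.00 at week 0 in silica rats (change 0.92 ± 0.13, adjusted p = 3.26e-07). Its weeks overlapped in neither exposure, since air rats had 8.65, 8.44, 8.31 and 8.23 at week 1, against 7.23, 7.90, 7.02 and 7.22 at week 0.

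Ank1, the ankyrin that ties the spectrin skeleton to the red cell membrane, stood at 7.91, 8.12 and 8.49 in week 1 silica rats, against 6.68, 7.35 and 7.69 at week 0, without overlap (change 0.83 ± 0.15, adjusted p = 2.09e-05, with 1.11 ± 0.21 in air). Kifc1, a kinesin of the mitotic spindle, changed by 0.77 ± 0.13 in silica rats and by 1.00 ± 0.19 in air rats. H2ac20, a histone H2A gene, changed by 0.78 ± 0.19, and Myo9b, an unconventional myosin, by 0.72 ± 0.12. The Myo9b change was 1.23 ± 0.18 in air rats, with an unadjusted interaction p of 0.0199 that did not pass over all genes. Sowaha (0.75 ± 0.14), LOC687298 (0.80 ± 0.13) and LOC500248 (0.77 ± 0.12) rose as well. Rps10-ps10 (0.94 ± 0.24) is a ribosomal protein pseudogene in RefSeq, and its probe may also bind near-identical copies, so the source of this rise is uncertain. Among the largest air rises were also Ints1, of the Integrator complex that processes RNA ends, Zswim8, a ubiquitin ligase adaptor that triggers microRNA decay, and Aen, a nuclease. They changed by 0.66 ± 0.12, 0.66 ± 0.12 and 0.66 ± 0.11 in silica rats and by 1.21 ± 0.17, 1.16 ± 0.17 and 1.11 ± 0.15 in air rats. LOC499823 fell in air rats (-1.30 ± 0.36) and did not pass in silica rats (-0.55 ± 0.26).

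Of the 24 leading silica genes, 22 had the same sign in air rats and were called there, where 12.9% of all genes were called. For 21 of the 24 the interval of the difference between exposures included 0, against 11646 of all 12306 genes. All 24 kept their sign under each of the 12 alternatives, with the changes of size given above. Fitting only the arrays compared, changing the filter or adding a block left every one of these changes as it was. Those alternatives could therefore not turn a sign. The 24 were also picked for large changes, which makes a kept sign likely under the others. With median centring 21 passed, where LOC502817 (adjusted p = 0.160), LOC502821 (0.125) and Myo9b (0.0527) did not. Within the first 4 column runs 10 of the 24 passed and within the last 4 runs 20, with 4 rats a week in each.

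**Figure D2:**
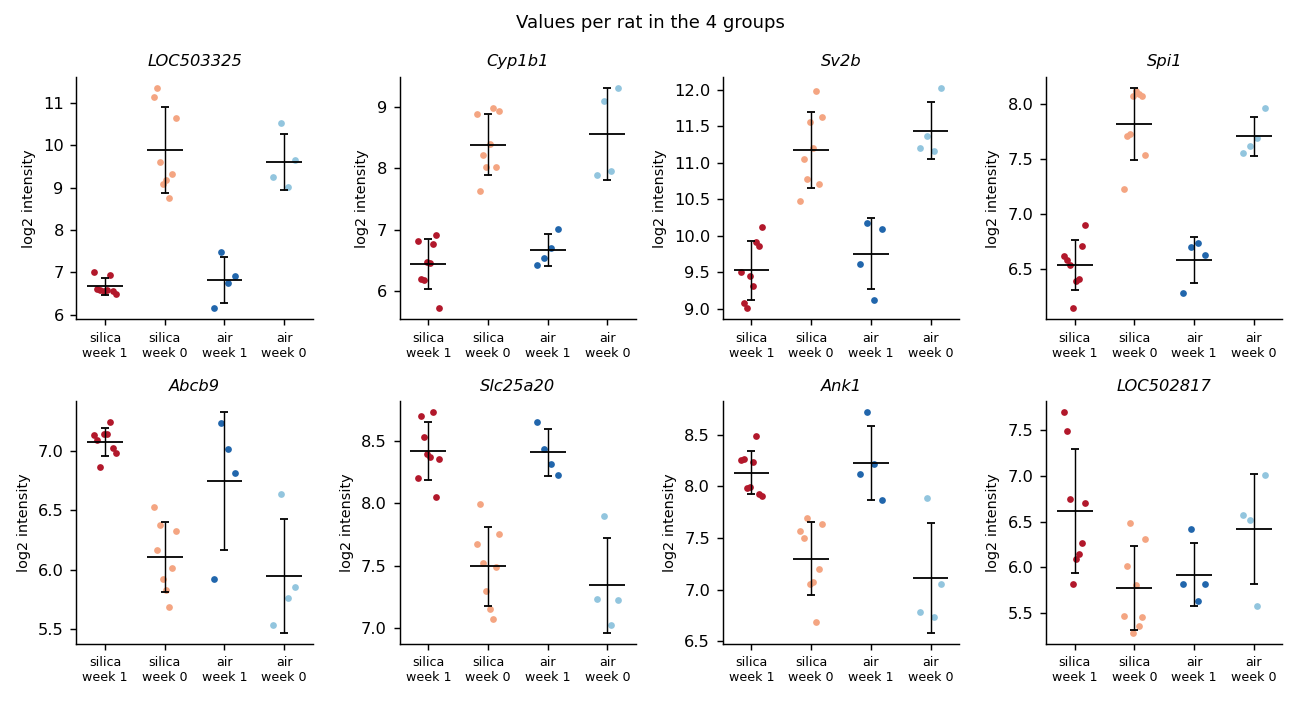
Normalised log2 intensity of 8 genes in every rat (points) of the silica week 1, silica week 0, air week 1 and air week 0 groups, with the group mean and SD in black. LOC503325 and Cyp1b1 are lower at week 1 than at week 0 in both exposures, and LOC502817 is higher at week 1 in silica but not in air.

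LOC502817 and LOC502821 were the 2 leading rises that air rats did not share. RefSeq lists both as V segments on chromosome 4, that is, pieces from which the variable part of an antigen receptor is joined in lymphocytes. LOC502817 had 5.82, 6.48 and 7.69 in week 1 silica rats, against 5.29, 5.63 and 6.49 at week 0 (change 0.85 ± 0.25, adjusted p = 0.0138), and the weeks overlapped. In air rats it stood at 5.82, 6.42, 5.63 and 5.82 at week 1, against 6.57, 6.52, 5.58 and 7.02 at week 0 (change -0.50 ± 0.36). LOC502821 changed by 0.83 ± 0.23 in silica rats and by -0.21 ± 0.32 in air rats. The difference between exposures was 1.35 for LOC502817 (unadjusted p = 0.00294) and 1.04 for LOC502821 (unadjusted p = 0.0102), and neither passed over all genes. V segments resemble each other, so a probe may bind several of them. LOC502817 did not pass without week 1 rat 1 (0.69) or without week 1 rat 2 (0.72).

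The genes with the lowest p for a difference between exposures did not pass either. Myb, a transcription factor of blood progenitors, had 7.37, 7.47 and 7.79 in week 1 silica rats, against 7.36, 8.02 and 8.47 at week 0 (change -0.46 ± 0.11). In air rats it had 7.18, 7.49, 6.97 and 7.19 at week 1, against 8.51, 7.96, 8.43 and 8.42 at week 0 (change -1.12 ± 0.15). The silica change minus the air change was 0.66 (95% interval 0.29 to 1.03, unadjusted p = 0.000601). Mtpn, which encodes myotrophin, a regulator of actin capping, changed by -0.31 ± 0.06 in silica and by 0.11 ± 0.09 in air (difference -0.42, unadjusted p = 0.000264). Suv39h1, a histone H3 lysine methyltransferase, changed by 0.16 ± 0.06 in silica and 0.57 ± 0.09 in air. Reep1, Glyr1 and LOC361350 completed the 6 genes of lowest p. LOC361350 was detected on 4 of 8 week 1 and 0 of 8 week 0 silica arrays, with means of 5.17 and 5.00. With week 0 levels raised to at least the lowest detected level of their array, the means differed 1.10-fold, an estimate without an interval.

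Interferon-stimulated genes had the lowest median of the 25 lists in silica rats with the processing used here, though not under every alternative. Interferons switch on these antiviral genes through a transcription factor complex that binds a response element of the letters GAAA, 2 bases of any kind, and GAAA again. Of 37 genes tested, 13 were called lower and 1 higher at week 1 in silica rats, that is 35.1% and 2.70% of the list, against 7.42% and 7.27% of all genes. The median change was -0.19, against 0.00 over all genes, and 31 of 37 had a change under 0. With array weights the median was -0.15, above those of the MHC class II (-0.19) and B-cell (-0.16) lists. With stock neqc it was -0.09, above those of the platelet (-0.13) and MHC class II (-0.12) lists. In air rats the median of the interferon list was -0.16, with 1 gene lower, 1 higher and 27 of 37 under 0.

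The largest changes in this list were those of Ifit2, Eif2ak2 and Ifih1. Eif2ak2, the kinase PKR that halts translation, had 5.23, 5.70 and 5.82 in week 1 silica rats, against 5.81, 6.39 and 6.64 at week 0, with weeks that overlapped by 1 rat each (change -0.70 ± 0.11, adjusted p = 3.32e-06). In air rats it had 5.50, 5.81, 5.71 and 5.57 at week 1, against 5.98, 5.72, 6.14 and 6.42 at week 0, a change that did not pass (-0.42 ± 0.16, adjusted p = 0.0714). Ifit2, an interferon-induced tetratricopeptide protein, stood at 5.45, 5.90 and 6.31 in week 1 silica rats, against 6.13, 6.70 and 7.46 at week 0 (change -0.79 ± 0.15, adjusted p = 0.000108, with -0.36 ± 0.22 in air). Ifih1, the cytosolic RNA sensor MDA5, changed by -0.64 ± 0.16 in silica rats and by -0.59 ± 0.22 in air rats. Usp18, which removes ISG15 and damps the interferon receptor, changed by -0.52 ± 0.14 and Ifit3, related to Ifit2, by -0.44 ± 0.14 in silica rats.

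Of the signalling members Stat2, a transcription factor of the interferon response, was lower in silica rats (-0.50 ± 0.08), with Socs1, a feedback inhibitor of cytokine receptors, at -0.31 ± 0.11. The Stat2 row had detection p-values off the grid that most rows share, so whether Stat2 lay above background is uncertain. Without Stat2, 12 falls remain. Stat2 was detected on 2 of 8 arrays at week 1 and 2 of 8 at week 0. The chemokine Cxcl10, which draws activated T cells, changed by -0.37 ± 0.09 in silica rats and by -0.00 ± 0.13 in air rats, a difference of -0.37 that did not pass (adjusted p = 0.919 in limma). Ifi44 (-0.41 ± 0.10), Gbp2 (-0.37 ± 0.12), Parp14 (-0.35 ± 0.11) and Oasl2 (-0.34 ± 0.11) fell as well. Cmpk2, a nucleotide kinase of mitochondria, rose instead (0.35 ± 0.08 in silica and 0.40 ± 0.12 in air). For 36 of the 37 genes the interval of the difference between exposures included 0, near the share of all genes (11646 of 12306). With median centring 7 were lower and 0 higher, within the first 4 column runs 0 and 0, and within the last 4 runs 3 and 1. Without week 0 silica rat 5 the number lower was 8, and with the column run as a block 16.

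The promoters of 4 of these falls are shown because they hold that element in the 250 bases before their RefSeq start sites. It was searched on both strands, as above or as TTTC, 2 bases and TTTC, and the match is in capitals. Of the 13 genes called lower, 10 had an entry and 9 held a match. Among the 23 genes not called, 16 had an entry and 9 held one, while 3.41% of all 33469 rat promoters did. The stretches lie at chr6:21940904-21941153 for Eif2ak2 (plus strand), with a match that starts 16 bases before the start site, and chr2:243303841-243304090 for Ifi44 (minus strand, 26 bases). The others are chr14:15988816-15989065 for Cxcl10 (plus strand, 243 bases) and chr3:67683969-67684218 for Ifih1 (minus strand, 59 bases), all in GRCr8. A match is a description of the letters and not of binding in these rats.
Eif2ak2: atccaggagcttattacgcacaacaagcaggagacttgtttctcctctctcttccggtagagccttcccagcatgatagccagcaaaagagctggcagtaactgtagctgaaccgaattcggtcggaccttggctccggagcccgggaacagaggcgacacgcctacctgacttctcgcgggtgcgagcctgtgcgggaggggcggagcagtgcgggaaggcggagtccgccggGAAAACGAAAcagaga
Ifi44: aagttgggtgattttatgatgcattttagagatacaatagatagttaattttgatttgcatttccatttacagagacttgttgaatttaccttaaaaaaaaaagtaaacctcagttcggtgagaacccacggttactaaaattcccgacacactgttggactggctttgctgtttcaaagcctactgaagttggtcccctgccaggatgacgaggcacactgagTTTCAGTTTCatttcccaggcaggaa
Cxcl10: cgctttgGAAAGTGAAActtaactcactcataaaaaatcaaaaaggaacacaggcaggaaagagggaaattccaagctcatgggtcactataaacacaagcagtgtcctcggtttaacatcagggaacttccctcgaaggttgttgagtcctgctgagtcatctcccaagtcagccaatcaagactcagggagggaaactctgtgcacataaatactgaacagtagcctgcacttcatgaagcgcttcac
Ifih1: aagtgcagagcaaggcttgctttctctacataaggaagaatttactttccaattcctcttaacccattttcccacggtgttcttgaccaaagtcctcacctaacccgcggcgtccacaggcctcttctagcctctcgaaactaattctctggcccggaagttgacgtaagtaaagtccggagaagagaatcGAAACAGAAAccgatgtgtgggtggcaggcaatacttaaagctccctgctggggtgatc

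**Figure D3:**
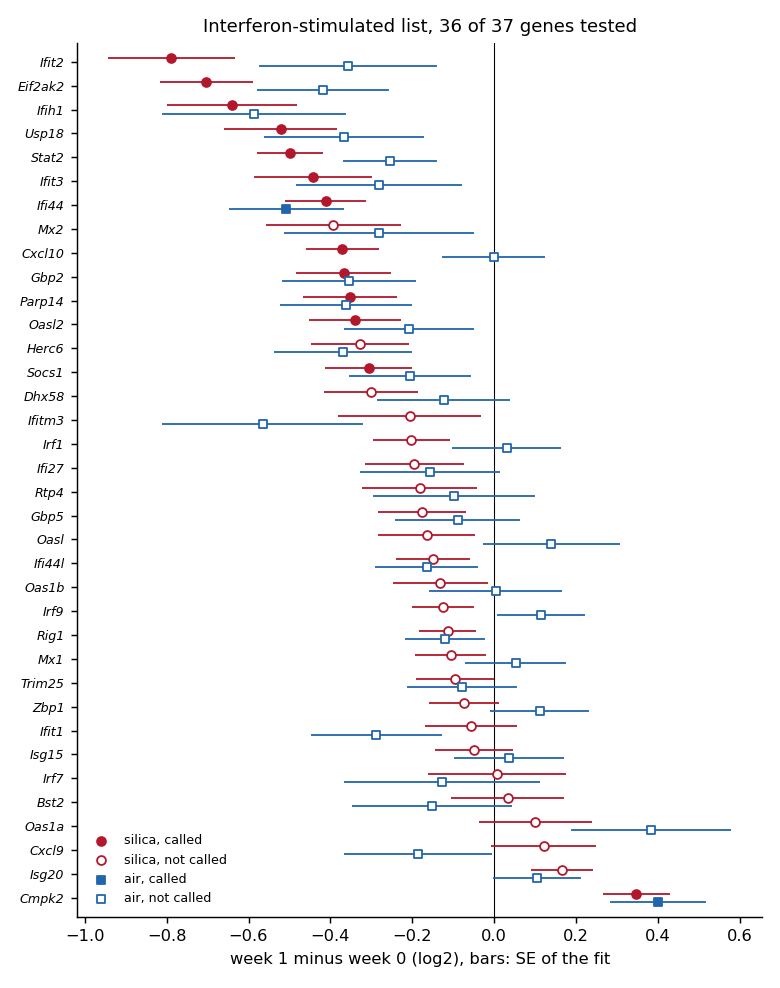
Log2 change from week 0 to week 1 of 36 of the 37 interferon-stimulated genes tested in silica rats (circles) and air rats (squares), with bars of 1 SE and filled symbols for called genes. In silica rats 12 filled circles lie under 0 and 1 above it, and in air rats 26 of 36 squares lie under 0.

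T-cell genes were lower at week 1 in both exposures where they were called. Of 23 genes tested, 4 fell in silica rats (17.4%, against 7.42% of all genes, median -0.11) and 5 in air rats (median -0.16). In silica rats 7 of the 23 had a change above 0. The T-cell marker Cd3d averaged 11.35 at week 1 and 11.15 at week 0 in silica rats, and Cd3e averaged 10.23 and 10.34. Cd4, the coreceptor of helper T cells, had 5.69, 5.89 and 6.14 in week 1 silica rats, against 6.40, 6.69 and 7.36 at week 0, without overlap (change -0.85 ± 0.13, adjusted p = 1.39e-06, with -0.98 ± 0.19 in air). Bcl11b and Lef1, transcription factors of T-cell development, changed by -0.42 ± 0.09 and -0.44 ± 0.12, and Cd247, the zeta chain of the T-cell receptor complex, by -0.33 ± 0.07. With median centring 2 of the 23 were called, both lower.

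Of 22 B-cell and plasma-cell genes 1 fell in silica rats (4.55%, against 7.42% of all genes, median -0.16, with 0.03 in air). With replicate number as a block 3 fell. The 1 gene called without that block was Spib, a B-cell transcription factor related to PU.1 (-0.50 ± 0.13, with -0.12 ± 0.18 in air). Jchain, which joins secreted IgA and IgM, did not pass in silica rats (-0.50 ± 0.21) and fell in air rats (-1.30 ± 0.29). Of 20 NK and cytotoxic genes 1 fell (5.0%), Ctsw, a cathepsin of cytotoxic cells (-0.29 ± 0.08).

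Of 12 MHC class II genes 3 fell in silica rats (25.0%, against 7.42% of all genes, median -0.14, with 0.08 in air). They were RT1-DOb, a chain of the peptide-loading regulator DO (-0.56 ± 0.12), Ctss, the cathepsin that cuts the invariant chain (-0.45 ± 0.11), and Cd74, the invariant chain itself (-0.30 ± 0.10), and with median centring 1 of the 12 fell. Of 22 MHC class I and immunoproteasome genes 4 fell (18.2%) and 1 rose (4.55%, against 7.27% of all genes). The falls included Tapbp (-0.29 ± 0.06) and Tap1 (-0.37 ± 0.12) of the peptide-loading complex, and the rise was the chaperone Calr (0.15 ± 0.04). The number of falls was 1 with median centring, 2 with only the arrays compared, 2 with the replicate block, where Calr did not pass, 2 without week 0 silica rat 2, and 2 without week 1 silica rat 2, 4 or 6.

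Of 18 neutrophil granule and effector genes 3 rose (16.7%, against 7.27% of all genes) and 1 fell in silica rats (median 0.09, and -0.00 with median centring, where 0 were called). With the replicate block or the column run as a block 6 rose. Mmp9, a gelatinase of neutrophil granules, had 8.31, 8.55 and 8.87 in week 1 silica rats, against 7.72, 7.91 and 8.41 at week 0 (change 0.55 ± 0.11, adjusted p = 8.18e-05, with 0.45 ± 0.15 in air). Stfa2l2, a cystatin-like protease inhibitor, had 10.22, 10.74 and 11.19 at week 1, against 9.71, 10.23 and 10.60 at week 0 (change 0.52 ± 0.13), and the weeks of both genes overlapped. Its change in air rats was -0.18 ± 0.18, a difference of 0.70 between exposures that did not pass over all genes (unadjusted p = 0.00215). Camp, the antimicrobial cathelicidin, changed by 0.38 ± 0.11 and Anxa1, an anti-inflammatory phospholipid-binding protein, by -0.29 ± 0.10.

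Of 22 neutrophil receptor and maturation genes 2 rose and 2 fell, 9.09% each, which is near the shares of all genes. Cybb, the catalytic subunit of the phagocyte oxidase, was among the falls (-0.48 ± 0.13). The rises were the transcriptional repressors Mxd1 (0.38 ± 0.11) and Gfi1 (0.32 ± 0.09). Of 18 monocyte and macrophage genes 1 fell (5.56%), and 2 with the replicate block, with a median of -0.06. Of 21 inflammatory mediators 4 fell in silica rats (19.0%, against 7.42% of all genes, median -0.06). Besides Nos2 these were Il1rn, the interleukin-1 receptor antagonist (-0.45 ± 0.13, with -0.12 ± 0.19 in air), Nlrp3, the inflammasome sensor (-0.36 ± 0.12), and Nfkb2, an NF-kB subunit (-0.31 ± 0.08).

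Mitochondrial respiratory genes gave the most rises of the 25 lists. Of 55 tested, 11 rose (20.0%, against 7.27% of all genes) and 3 fell (5.45%, against 7.42%) in silica rats (median 0.08). In air rats 11 rose and 3 fell (median 0.07). Ndufb9, a subunit of complex I, had 12.15, 12.20 and 12.31 in week 1 silica rats, against 11.72, 11.90 and 12.01 at week 0, without overlap (change 0.33 ± 0.05, adjusted p = 1.66e-07, with 0.36 ± 0.06 in air). Ndufa12, Ndufb4 and Ndufb6 of the same complex changed by 0.49 ± 0.08, 0.46 ± 0.10 and 0.42 ± 0.06. The falls were Sdhd (-0.23 ± 0.07), of complex II, and Ndufs1 (-0.21 ± 0.06) and Ndufa6 (-0.23 ± 0.08), of complex I. With median centring 0 of the 55 were called and the median was -0.05, so the direction of the list differed between the normalizations.

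Of 41 erythroid and reticulocyte genes 6 rose in silica rats (14.6%, against 7.27% of all genes, median 0.08, with 0.03 in air). Besides Ank1 they included Urod, an enzyme of heme synthesis (0.45 ± 0.08), Slc25a38, the mitochondrial glycine carrier (0.34 ± 0.09), Rhd, the Rh antigen (0.31 ± 0.06), and Add2, an adducin of the membrane skeleton (0.25 ± 0.07). Air rats also had 6 rises in this list, and in silica rats 14 of the 41 genes had a change under 0. Slc4a1, a marker gene of red cells, averaged 11.99 at week 1 and 12.22 at week 0 in silica rats, and Alas2 averaged 14.17 and 14.09. With median centring the median of the list was -0.04, with 1 gene higher and 1 lower. Of 16 platelet genes 1 fell (6.25%), Alox12, the platelet lipoxygenase (-0.39 ± 0.14), and 2 fell with the replicate block. The platelet median was -0.13 in silica and -0.09 in air.

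Immediate early genes, which respond within minutes to stimulation and to the handling of cells, were lower in both exposures in most of those called. Of 22 tested, 6 fell (27.3%, against 7.42% of all genes) and 1 rose (4.55%, against 7.27%) in silica rats (median -0.04). Air rats had 5 falls (median -0.09). Jund, a subunit of AP-1, changed by -0.64 ± 0.12 in silica, and the transcription factors Klf4 and Klf2 by -0.68 ± 0.19 and -0.48 ± 0.10. Zfp36, which destabilises cytokine mRNAs, changed by -0.30 ± 0.10, and Ier3, a stress-response gene, rose (0.34 ± 0.10). With median centring 1 of the 22 was lower and 0 higher, and without week 0 silica rat 5, 2 were lower. Of 14 heat shock chaperone genes 2 rose (14.3%), Bag3 (0.26 ± 0.08) and Dnajb1 (0.18 ± 0.06), and a second row of Bag3 gave -0.01.

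Of the apoptosis genes 17.4% were called and of the cell cycle genes 13.2%, near the 14.7% of all genes. Mcl1, an anti-apoptotic protein on which neutrophils depend, had 9.54, 9.71 and 9.89 in week 1 silica rats, against 10.09, 10.28 and 10.75 at week 0, without overlap (change -0.62 ± 0.08, adjusted p = 4.11e-08, with -0.69 ± 0.11 in air). Of 23 apoptosis genes 3 fell, Mcl1, Bid and Mdm2, and 1 rose, Bak1, and Mdm2 did not pass with the replicate block. Of 38 cell cycle genes 4 rose and 1 fell, 7 rose with that block, and 0 rose with median centring. Cdc20, an activator of the anaphase-promoting complex (0.67 ± 0.17), and Ccnb2, a mitotic cyclin (0.42 ± 0.11), rose, while Hmgb2, a chromatin protein, fell (-0.55 ± 0.08). The median of the cell cycle list was 0.06, and -0.01 with median centring.

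Of 27 oxidative stress and NRF2 genes 5 fell (18.5%, against 7.42% of all genes) and 3 rose (11.1%, against 7.27%) in silica rats. Keap1, the sensor that holds NRF2 down, changed by -0.50 ± 0.08 in silica and -0.54 ± 0.11 in air, and Gpx3, a secreted glutathione peroxidase, by -0.50 ± 0.15. Prdx1, a peroxiredoxin, rose (0.27 ± 0.06). With median centring 1 was lower and 0 higher, in the authors' deposited values 1 was higher, as with only the arrays compared, and without week 1 silica rat 6 the number of falls was 3. Tgfb1, a cytokine of tissue repair, fell in silica rats (-0.61 ± 0.12, with -0.57 ± 0.17 in air). It was 1 of 2 falls among 18 matrix and repair genes (11.1%), where Timp1, an inhibitor of matrix proteases, rose (0.36 ± 0.10). Lamp1, a lysosomal membrane protein, fell (-0.40 ± 0.08), 1 of 3 falls among 27 lysosome genes (11.1%), where 1 gene rose and 2 with the replicate block. Lipa, the acid lipase, was among these falls and was detected on 0 of 8 arrays at week 1 and 4 of 8 at week 0. Its means were 4.97 and 5.14. With undetected week 1 levels raised as for LOC361350, they differed 1.09-fold, an estimate without an interval.

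Over the 25 lists together 627 entries were tested, a gene in several lists counted in each. In silica rats 40 of the 627 rose and 65 fell, where 7.27% and 7.42% of all genes did. These counts were 1 and 29 under median centring, 0 and 2 within the first 4 column runs and 10 and 17 within the last 4. In the ribosomal protein list 6 of 62 genes fell (9.68%) and 2 rose (3.23%), with a median of 0.00 and 0 called under median centring. Rpl19 (-0.32 ± 0.06) had the lowest p. Probes of ribosomal protein genes may also bind their pseudogenes. Of 18 glucocorticoid-responsive genes 1 fell, Pik3ip1, an inhibitor of PI3 kinase (-0.34 ± 0.10), and 1 rose, the transcription factor Klf9 (0.19 ± 0.07), which did not pass with the replicate block. In limma 0 of 15 eosinophil, basophil and mast cell genes, 0 of 14 circadian clock genes and 0 of 22 complement genes were called in silica rats, with 0, 1 and 0 of them at an unadjusted p under 0.05. Over the 25 lists 0 genes passed the test of the difference between exposures.

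**Figure D4:**
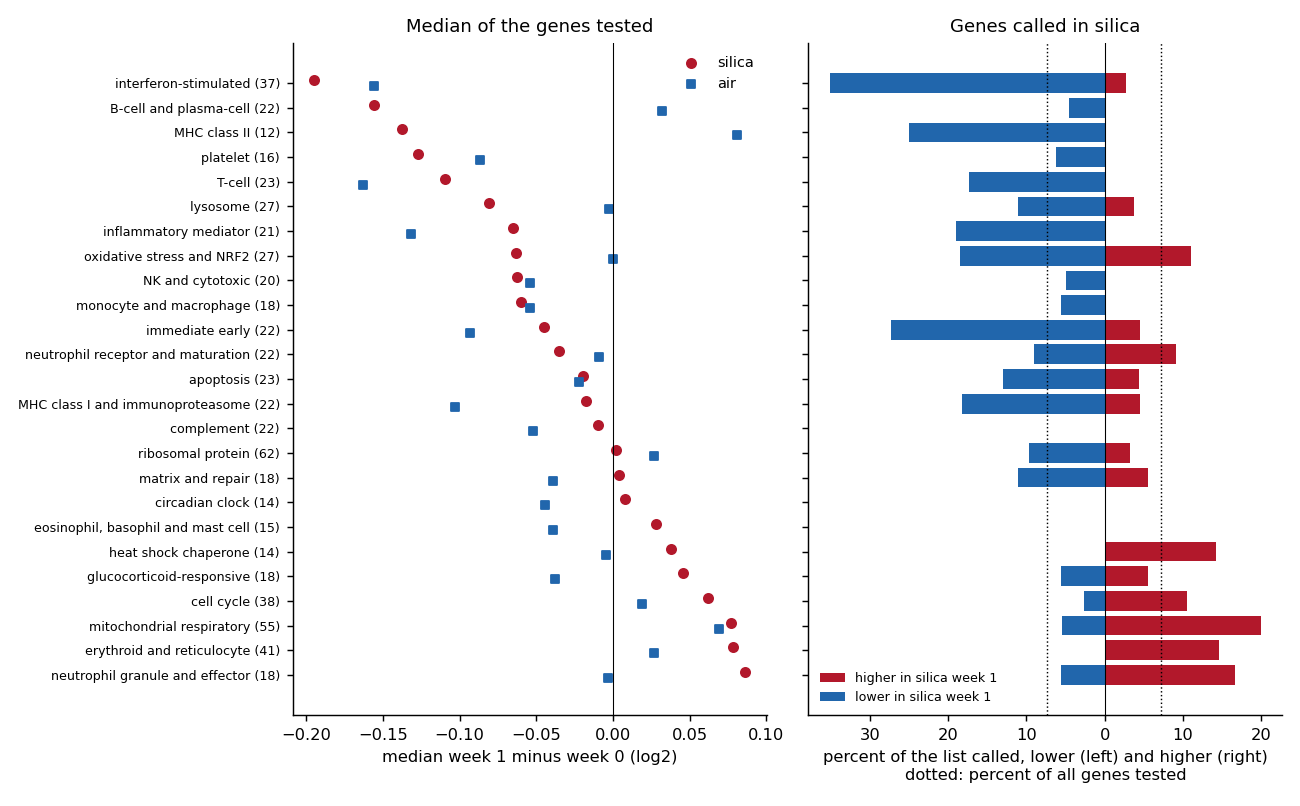
Left, the median log2 change from week 0 to week 1 of the genes tested in each of 25 lists (number in brackets) in silica rats (circles) and air rats (squares). Right, the percent of each list called higher or lower in silica, with dotted lines at the 7.27% and 7.42% of all genes, where the interferon list had 13 of 37 genes lower.

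Mean levels of the other groups, which are other rats, were set against the silica means of weeks 1 and 0. The genes were picked because these means differ, and the share over all genes was not computed. How long a change lasts in a rat is therefore not shown. Of the 1808 silica calls, 71.3% had a week 2 silica mean nearer to that of week 1 than to that of week 0, and 47.5%, 28.4% and 49.4% at weeks 4, 8 and 16. Means of air rats, set against the same silica means, were nearer week 1 for 8.90% of the genes at week 0, 89.4% at week 1, 66.2% at week 2, 49.6% at week 4, 41.2% at week 8 and 46.2% at week 16. Of the 24 leading genes 20 were nearer week 1 at week 2 in silica rats, and 10, 3 and 8 at weeks 4, 8 and 16. Low-dose rats, given 1 or 2 mg/m3, and the air groups killed with them are also labelled week 0, and in these 4 groups between 43.9% and 60.9% of the genes were nearer to week 1.

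The leading falls followed different courses. In silica rats Cyp1b1 averaged 8.38 ± 0.50 at week 0, 6.44 ± 0.40 at week 1, 5.96 ± 0.38 at week 2, 8.93 ± 0.54 at week 4, 8.59 ± 0.28 at week 8 and 8.50 ± 0.75 at week 16 (SD, n = 8 each). In air rats Cyp1b1 was likewise low at week 1 (6.67 ± 0.26) and week 2 (6.38 ± 0.39), against 8.26 to 8.70 at the other weeks (n = 4 each). LOC503325 was low at weeks 1 and 2 in both exposures, with 6.67 ± 0.20 and 7.22 ± 0.17 in silica rats, against 9.45 to 11.13 at the others. In the low-dose rats and their air groups LOC503325 averaged 9.90 to 11.42, as high as at week 0 or higher.

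Nos2 did not share that course. Its silica mean was 6.79 ± 0.57 at week 0, 5.64 ± 0.32 at week 1, 6.12 ± 0.18 at week 2, 6.12 ± 0.42 at week 4, 7.44 ± 0.33 at week 8 and 6.71 ± 0.94 at week 16. In the low-dose rats and their air groups Nos2 averaged 5.36 to 5.95, nearer to week 1. Sv2b was highest at week 0 in both exposures (11.18 ± 0.52 in silica and 11.44 ± 0.40 in air) and averaged 10.16 to 10.63 in silica rats from week 2 on. Slc25a20 stood at 7.49 ± 0.31 at week 0, 8.42 ± 0.23 at week 1, 8.44 ± 0.11 at week 2, 8.17 ± 0.23 at week 4, 7.65 ± 0.26 at week 8 and 8.34 ± 0.36 at week 16 in silica rats. Ank1 stood at 7.30 ± 0.36 at week 0 and averaged 7.88 to 8.52 at the later weeks in silica rats. Eif2ak2 was at 6.34 ± 0.27 at week 0, 5.64 ± 0.18 at week 1, 5.50 ± 0.12 at week 2 and averaged 6.07 to 6.28 from week 4 on in silica rats.

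**Figure D5:**
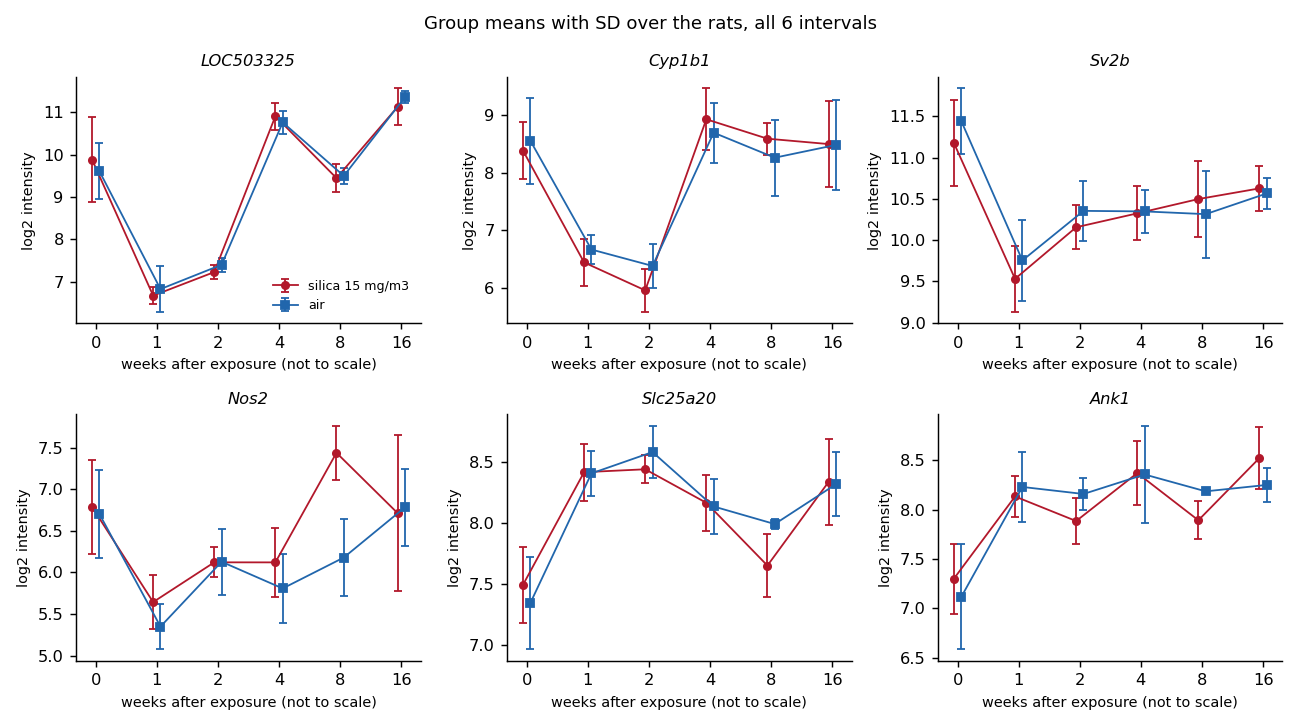
Mean normalised log2 intensity with SD of 6 leading genes at weeks 0 to 16 in silica rats (circles, 8 a week) and air rats (squares, 4 a week). Cyp1b1 and LOC503325 are low at weeks 1 and 2 in both exposures, and the mean of Nos2 is lowest at week 1 in both.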

How the data were processed

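Blood RNA was measured on 96 arrays, and the 16 silica arrays of weeks 1 and 0 were compared, with 8 air arrays beside them. The deposited table holds 1 intensity per probe row and array with a detection p-value, as the file headers name them, and BeadStudio stands in the submitters' processing notes. In it 192 further columns, of bead numbers and bead standard errors, were left aside. The authors' deposited log2 values, for which those notes name limma and lumi, served as an alternative, and how they were transformed is not given in the sources used here.

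In R 4.3.3 with limma 3.58.1, intensities were background-corrected (normexp from detection p-values, offset 16), quantile normalized and taken to log2. Detection p-values lie on a grid of 825 steps, and 626 rows off it were left out of the background estimate only, which was decided with the data in view. The filter kept 12368 of 21792 rows, those with detection p-values under 0.05 on 4 arrays or more, and the brightest row stood for a gene. RefSeq symbols were found through Entrez IDs for 16866 rows and through symbols for 144, and 4782 kept the name in the table. A single limma fit estimated a mean for each group over all arrays. The genes named were the 12 largest silica rises and 12 largest falls with all 8 week 1 rats on 1 side of the week 0 mean, the 6 largest in air each way, the 3 of lowest p each way for the difference, and up to 4 of lowest p per list. List members named beyond these were chosen after their values were seen, and some genes are not reported here. The 25 lists share 16 genes. Members, lists and rules were chosen with earlier results of these data known. The fit was tested on simulated data.

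Arrays correlated within groups at 0.982 to 0.996, with 0 identical pairs. Each array is a separate rat per the labels. Same-numbered silica rats of weeks 1 and 0 deviated together (r of deviations from the group means 0.113 to 0.314, above 0.1 in 8 of 8 pairs, of which 6 share a column run). Silica rats of the same column run did so more closely (median r 0.236, against 0.176 by number, and 7 of 8 best with their own, against 5). Same-numbered air rats did not (above 0.1 in 1 of 4, and in 2 of 4 by column run). The replicate block was therefore read as a pairing of the silica rats only, from the data and not the labels. It was also run for the air rats and for the difference between exposures, where no such pairing was seen. Alternatives covered the samples fitted, background, normalization, filter, array weights, blocks, column runs and each array left out.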

Additional observations from a re-analysis of the deposited data

Results flagged for a closer look

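In each group of 4 or 8 rats the highest and the lowest rat were compared with their neighbours by Dixon's ratio, for the genes named from the 3 contrasts and for the number of detected rows. Of 144 such groups 7 held a rat far from the others, where chance gives about 1 in 20. In silica rats this was Mtpn in week 1 rat 4, at 7.62, while the other 7 lay between 7.87 and 8.03. The other 6 concern air rats, of which there are 4 a group. Air week 1 rat 1 detected 7727 rows, against 8969 to 9160 in the others. Without this rat 1269 genes were called between the air weeks, against 1593 with it, and the difference between exposures called 0 genes in limma either way. H2ac20 stood at 10.37 in air week 1 rat 4 (others 9.89 to 9.94) and at 9.46 in air week 0 rat 2 (others 8.91 to 8.96). Air week 0 rat 2 was also low in Jchain, at 9.5 (others 10.78 to 11.01), and in Myb, at 7.96 (others 8.42 to 8.51). Myo9b stood at 7.78 in air week 0 rat 4 (others 8.37 to 8.48). The part of these rats in the differences between silica and air was not tested beyond leaving each out in turn.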

How the results depend on the processing

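Silica calls numbered 1519 to 2258 under 9 of 12 alternatives, among them 1925 with the replicate block, which pairs same-numbered rats, and 2052 with the column run as a block. The others gave 546 with median centring (the cause was not tested), 28 within the first 4 column runs and 654 within the last 4, each with 4 rats a week. Leaving out 1 rat gave 1391 to 1851. Air calls were 950 with only the arrays compared and 950 within the first 4 runs, which hold all 8 air rats compared, 795 with the column run as a block, 541 with the replicate block and 20 with median centring, and 1199 to 1708 with 1 rat left out. The last 4 runs hold no air rats and gave no air value. The difference between exposures called 0 genes in each of these limma fits. With median centring 8 silica changes turned sign: Il3ra (-0.0598), Hspe1 (-0.0497), Dnaja1 (-0.00937), Csnk1d (-0.0158), Per2 (-0.0393), Cry1 (-0.104), Tgfbr1 (-0.0124) and Scarb2 (-0.00548). Ncr1 turned to 0.00361 within the first 4 runs. Among these 9, Scarb2 alone was called with quantile normalization. With the replicate block 6 named genes no longer passed in silica rats, among them Klf9, Calr and Mdm2, and 4 passed newly. It changed no call among the 24 leading genes. Signal near background limits genes detected on few arrays, and 398 tested genes had a row off the detection grid.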
